A study of Homo sapiens with 24 samples.

Results

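The mitochondrial genome carries 37 genes, and all of them were measured here. They were taken as every row of the count table whose symbol starts with MT-, which gave 37 of 60668 rows. Of these, 13 encode proteins (mRNAs), 2 encode ribosomal RNAs (rRNAs) and 22 encode transfer RNAs (tRNAs). MCF-10A is an immortalised, non-tumour human mammary epithelial line. It was compared with MCF-10A MYC-ER, which carries MYC, a transcription factor that drives growth, joined to the part of the oestrogen receptor that binds hormone. 4-hydroxytamoxifen (4-OHT) binds that part and releases the fusion protein to act in the nucleus, and the parental line, without the fusion, shows what the drug does alone. Both lines were grown as 3D cultures on Matrigel from 10000 cells per well, treated with 1 µM 4-OHT for 0, 8, 24 or 48 h and all collected on day 5, so the 0 h cultures had no drug. The 8 groups are thus MYC-ER and parental cells at 0, 8, 24 and 48 h, with 3 libraries each and 24 in all. The labels name no solvent control and no empty-vector line, do not say whether MYC-ER is a clone or a pool, and do not give the species of the receptor part. They describe seeding in triplicate but not whether the 3 libraries of a group are separate cultures, so p-values measure the spread between these libraries, which may be technical.

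Mitochondrial DNA is a small circle that is read on both strands into long precursor RNAs by a dedicated polymerase, POLRMT, with the help of TFAM and TFB2M. The tRNAs lie between most of the other genes, and enzymes cut them out at both ends, which frees the rRNAs and the mRNAs between them. The proteins made are core subunits of the respiratory chain: MT-ND genes for complex I (NADH dehydrogenase), MT-CYB for complex III, MT-CO genes for complex IV (cytochrome c oxidase) and MT-ATP genes for the ATP synthase. Most of the mRNAs receive a short poly(A) tail inside the mitochondrion, and in several of them the tail completes the stop codon.

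The results turn on the start of the heavy-strand transcript, where MT-TF, MT-RNR1, MT-TV, MT-RNR2 and MT-TL1 follow each other with 0 bases between them in the GENCODE release 29 annotation of GRCh38. MT-TF runs from chrM:577-647, MT-RNR1 (ENSG00000211459.2) from chrM:648-1601, MT-TV from chrM:1602-1670, MT-RNR2 (ENSG00000210082.2) from chrM:1671-3229 and MT-TL1 from chrM:3230-3304, all on the plus strand, and MT-ND1 starts 2 bases further on. MT-TR, the tRNA with the largest changes at 8 and 24 h, fills chrM:10405-10469 between MT-ND3 and MT-ND4L, again with 0 bases on either side. The tRNA genes that border the rRNAs, and MT-TR, are shown 5′ to 3′ because the results refer to them and to the rRNAs they border. Capitals mark the first 7 bases and the 7 bases before the last, which pair with each other to form the acceptor stem, the end that the processing enzymes recognise.
MT-TF: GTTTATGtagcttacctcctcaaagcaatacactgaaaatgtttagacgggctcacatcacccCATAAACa
MT-TV: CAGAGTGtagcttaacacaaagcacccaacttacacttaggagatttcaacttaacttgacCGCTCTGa
MT-TL1: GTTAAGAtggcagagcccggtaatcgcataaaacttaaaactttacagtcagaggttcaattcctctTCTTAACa
MT-TR: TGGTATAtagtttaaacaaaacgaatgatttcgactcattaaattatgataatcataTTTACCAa
With G-U pairs counted, 7 of 7 positions pair in MT-TF, MT-TV and MT-TL1, and 6 of 7 in MT-TR. These genes are 65 to 75 bases long, shorter than the 150-base reads, so a count in a tRNA row may come from a longer RNA that spans it, which was not tested.

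Some mRNA genes overlap, which limits how far their counts can be separated. The stretches are shown with 10 bases on either side and the shared bases in capitals.
MT-ATP8 and MT-ATP6: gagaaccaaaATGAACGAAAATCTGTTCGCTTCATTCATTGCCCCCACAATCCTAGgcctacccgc
MT-ND4L and MT-ND4: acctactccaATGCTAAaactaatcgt
MT-ATP8 and MT-ATP6 share 46 bases (chrM:8527-8572) and MT-ND4L and MT-ND4 share 7 (chrM:10760-10766). Reads from these pairs come from shared mRNAs, so values of single members of the pairs are uncertain. In 6 of the 13 mRNAs the gene length was not a multiple of 3, so the last codon is incomplete in the DNA. The last 12 bases of 3 of these genes show it, with the bases of the incomplete codon in capitals.
MT-ND1: ccctcaaaccTA
MT-CO3: gatgagggtctT
MT-CYB: tcaaatgggccT
The other genes of this kind were MT-ND2, MT-ND3 and MT-ND4, and a poly(A) tail supplies the missing letters.

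Library totals ran from 136860029 to 182438505 counts, and all 37 genes had counts in every library. The mRNAs were deeply covered, with 30447 counts or more in every library, whereas the scarcest tRNA row, MT-TL2, held 4 to 31 counts. Levels are given in CPM, counts scaled to 1 common library total by the TMM method, which allows for differences in composition, and errors are the SD over 3 libraries. In edgeR's quasi-likelihood test all 22158 genes with enough counts were fitted together, and a gene was called where its Benjamini-Hochberg adjusted p was under 0.05. All 8 mammary epithelial markers were above 1 CPM in every group. Of the fibroblast markers, 2 or 3 of 5 reached 1 CPM, and their summed level moved with time in MYC-ER cells: 369 to 377 CPM at 0 h, 102 to 109 after 8 h, 79.7 to 91.6 after 24 h and 121 to 130 after 48 h. COL1A1 and DCN made up most of this sum, and COL3A1 and PDGFRA were at or near 0. In MYC-ER cells the epithelial sum was 13770 to 14240 CPM at 0 h, 13332 to 14983 after 8 h, 9686 to 10057 after 24 h and 9520 to 10231 after 48 h. KRT5 carried this sum, with means of 12528 CPM at 0 h and 7095 CPM after 24 h. Of the 8 epithelial markers 5 were called higher and 2 lower at 8 and at 24 h against 0 h, and 6 higher and 1 lower at 48 h. Of all genes, 32.2, 30.4 and 23.4% were called higher and 35.4, 31.2 and 20.7% lower at 8, 24 and 48 h. CDH5 of endothelium was at 0, and PECAM1 averaged 0.113 CPM at 0 h, 1.01 after 8 h, 0.250 after 24 h and 0.333 after 48 h. PTPRC and CD3E of immune cells were at or near 0, whereas CD68 averaged 16.7, 21.9, 7.41 and 5.68 CPM at those times. The part of these markers in the mitochondrial changes was not tested. The parental 0 h replicate 1 library stood apart, with a lower mitochondrial share than the other 23 libraries, and results that rest on it are given with and without it. Parental 0 h replicate 3 had a usual share but another makeup than replicate 2. MT-ND4L took 1.10% and MT-ND5 3.71% of its mRNA counts, against 1.98 and 5.24% in replicate 2 and 1.28 and 3.99% in replicate 1. MT-CO2 took 15.8% and MT-CO3 12.3% in replicate 3, against 13.3 and 10.6% in replicate 2 and 14.7 and 15.1% in replicate 1. MT-ND3 took 1.28% and MT-ATP8 1.42% in replicate 3, against 1.03 and 1.76% in replicate 2 and 0.98 and 1.06% in replicate 1. Fits without replicate 1 keep replicate 3, so parental 0 h values of these genes remain uncertain in them. Levels are relative to the other RNA of a library, so a fall here is a fall against the other genes. In such bulk libraries fewer mitochondria, fewer cells rich in them, less RNA per genome and more nuclear RNA per cell cannot be told apart.

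MYC-ER cells without 4-OHT held the highest share of mitochondrial RNA of the 8 groups, and the share was lower at each time after 4-OHT. All 37 genes together took 9.24, 9.67 and 9.71% of the counts in the MYC-ER 0 h libraries, 5.61, 6.55 and 6.58% after 8 h, 6.34, 6.65 and 6.49% after 24 h, and 6.66, 6.57 and 6.78% after 48 h. Parental shares were 3.86, 7.28 and 7.03% at 0 h, 7.41, 6.50 and 7.73% after 8 h, 6.19, 7.07 and 5.51% after 24 h, and 7.78, 6.92 and 6.59% after 48 h. The MYC-ER 0 h libraries lay above all 21 others, and the treated MYC-ER libraries lay within the parental range. These shares are sums over the genes and carry no test.

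The rRNA share followed another course than the mRNA share. The 13 mRNAs took 7.47, 7.75 and 7.81% of the counts in MYC-ER cells at 0 h, 5.11, 6.0 and 6.0% after 8 h, 5.75, 6.05 and 5.88% after 24 h, and 5.44, 5.38 and 5.55% after 48 h. The 2 rRNAs, which form the small and large subunits of the mitochondrial ribosome, took 1.74, 1.89 and 1.87% at 0 h, 0.480, 0.528 and 0.562% after 8 h, 0.570, 0.583 and 0.595% after 24 h, and 1.19, 1.17 and 1.21% after 48 h. As a result, rRNA counts per 100 mRNA counts were 23.9 ± 0.54 before 4-OHT, 9.18 ± 0.34 after 8 h, 9.89 ± 0.24 after 24 h and 21.9 ± 0.05 after 48 h. The ratio was low at 8 and 24 h and back near its starting value at 48 h. In parental cells it was 12.3 ± 2.58 before 4-OHT, 11.1 ± 0.17 after 8 h, 9.54 ± 0.66 after 24 h and 9.06 ± 0.42 after 48 h, and the parental 0 h replicate 1 library had 15.2 against 10.5 and 11.1 in its group. Since the libraries were made by poly(A) selection, this ratio describes tailed or co-captured rRNA, not the rRNA content of the cells. The 22 tRNA rows together took 0.0124 to 0.0339% of the counts.

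**Figure D1:**
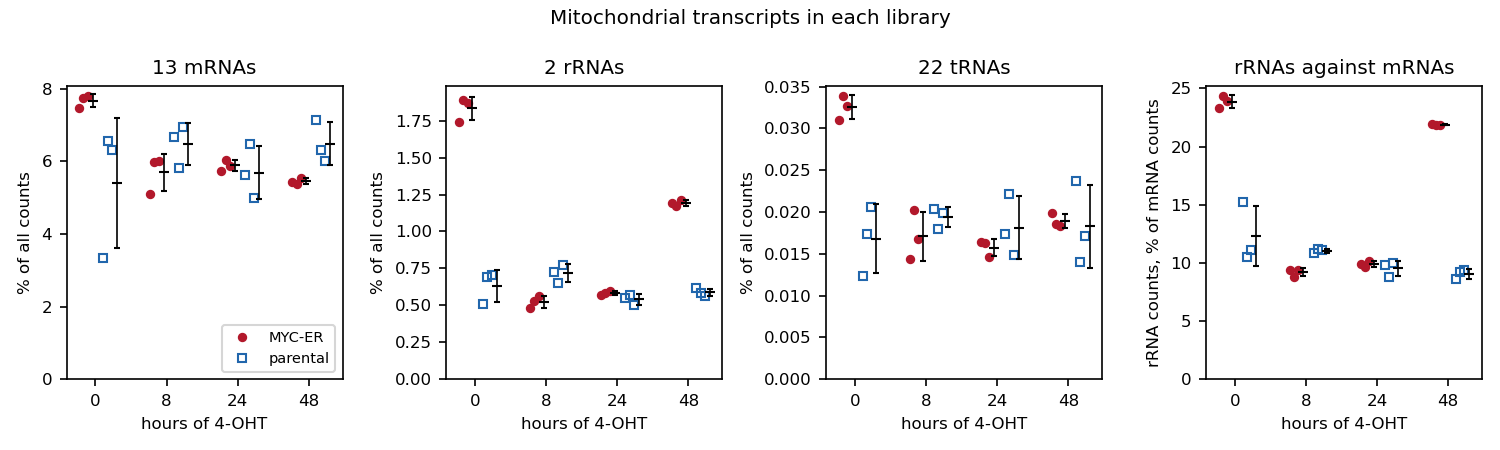
Share of the 13 mRNAs, 2 rRNAs and 22 tRNAs in all counts (percent), and rRNA counts as a percent of mRNA counts, against hours of 4-OHT, with 1 point per library for MYC-ER (filled circles) and parental cells (open squares). The rRNA panels show MYC-ER cells high at 0 h, low at 8 and 24 h and in between or high at 48 h, while the mRNA panel shows no rise at 48 h.

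Both rRNAs fell more than 3-fold within 8 h of 4-OHT in MYC-ER cells, stayed low at 24 h and were higher again at 48 h. MT-RNR1, the rRNA of the small ribosomal subunit, stood at 2309, 2460 and 2481 CPM at 0 h, 719, 734 and 814 after 8 h, 775, 775 and 786 after 24 h, and 1952, 1868 and 1872 after 48 h. MT-RNR2, the rRNA of the large subunit, stood at 15046, 16872 and 16554 CPM at 0 h, 4456, 4887 and 5326 after 8 h, 4664, 4634 and 4713 after 24 h, and 8950, 8749 and 9050 after 48 h. No library of the 8 or 24 h groups came near the 0 h libraries for either rRNA. At 8 h against 0 h MT-RNR1 fell 3.20-fold (log2 change -1.68, SE 0.093, adjusted p = 5.49e-13). MT-RNR2 fell 3.30-fold over the same hours (log2 change -1.72, SE 0.105, adjusted p = 2.67e-12). Leaving out any 1 library kept these log2 changes between -1.73 and -1.64 for MT-RNR1 and between -1.79 and -1.66 for MT-RNR2.

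The low rRNA level held at 24 h and was partly undone at 48 h. Against 0 h, MT-RNR1 was 3.10-fold and MT-RNR2 3.46-fold lower at 24 h. Between 8 and 24 h neither rRNA passed the test (log2 changes 0.04 and -0.07). From 24 to 48 h MT-RNR1 rose 2.44-fold (log2 change 1.28, adjusted p = 1.03e-10) and MT-RNR2 rose 1.91-fold (log2 change 0.93, adjusted p = 9.16e-08). At 48 h both remained below 0 h, MT-RNR1 by a log2 change of -0.35 (adjusted p = 0.00338) and MT-RNR2 by -0.86 (adjusted p = 5.12e-07), so the large-subunit rRNA had regained less of its level. The 8, 24 and 48 h comparisons share the 0 h libraries and are not independent of each other.

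In parental cells MT-RNR1 ranged from 643 to 1036 CPM and MT-RNR2 from 4504 to 7038 CPM over all times. MT-RNR1 stood at 743, 798 and 1036 CPM at 0 h, 879, 838 and 942 after 8 h, 705, 776 and 643 after 24 h, and 803, 750 and 764 after 48 h. MT-RNR2 stood at 4504, 6139 and 6586 CPM at 0 h, 6481, 5733 and 7038 after 8 h, 4889, 4960 and 4537 after 24 h, and 5131, 5083 and 5053 after 48 h. The 8 h MYC-ER libraries were thus in the range of the parental ones or just below it, and the 0 h MYC-ER libraries were far above it. At 24 h against 0 h both parental rRNAs fell slightly, by log2 changes of -0.28 for MT-RNR1 (adjusted p = 0.0164) and -0.26 for MT-RNR2 (adjusted p = 0.0452), although the ranges overlapped. Without parental 0 h replicate 3 the log2 changes were -0.12 and -0.15 and neither passed, and the call of MT-RNR1 was also lost without 24 h replicate 3 and that of MT-RNR2 in most such fits. With parental 0 h replicate 1 left out, they became -0.37 and -0.41, and both rRNAs were then also lower at 48 h (log2 changes -0.25 and -0.32).

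The MYC-ER change differed from the parental change at 8 h by -1.72 in MT-RNR1 (adjusted p = 2.19e-10) and by -1.88 in MT-RNR2 (adjusted p = 3.53e-10). At 24 h the differences between the lines' changes were -1.36 and -1.53. At 48 h the difference was -0.68 in MT-RNR2 (adjusted p = 0.000572), while MT-RNR1 did not pass (-0.19, adjusted p = 0.237). When parental 0 h replicate 1 was left out, the difference at 8 h was -1.63 in MT-RNR1 and -1.74 in MT-RNR2.

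**Figure D2:**
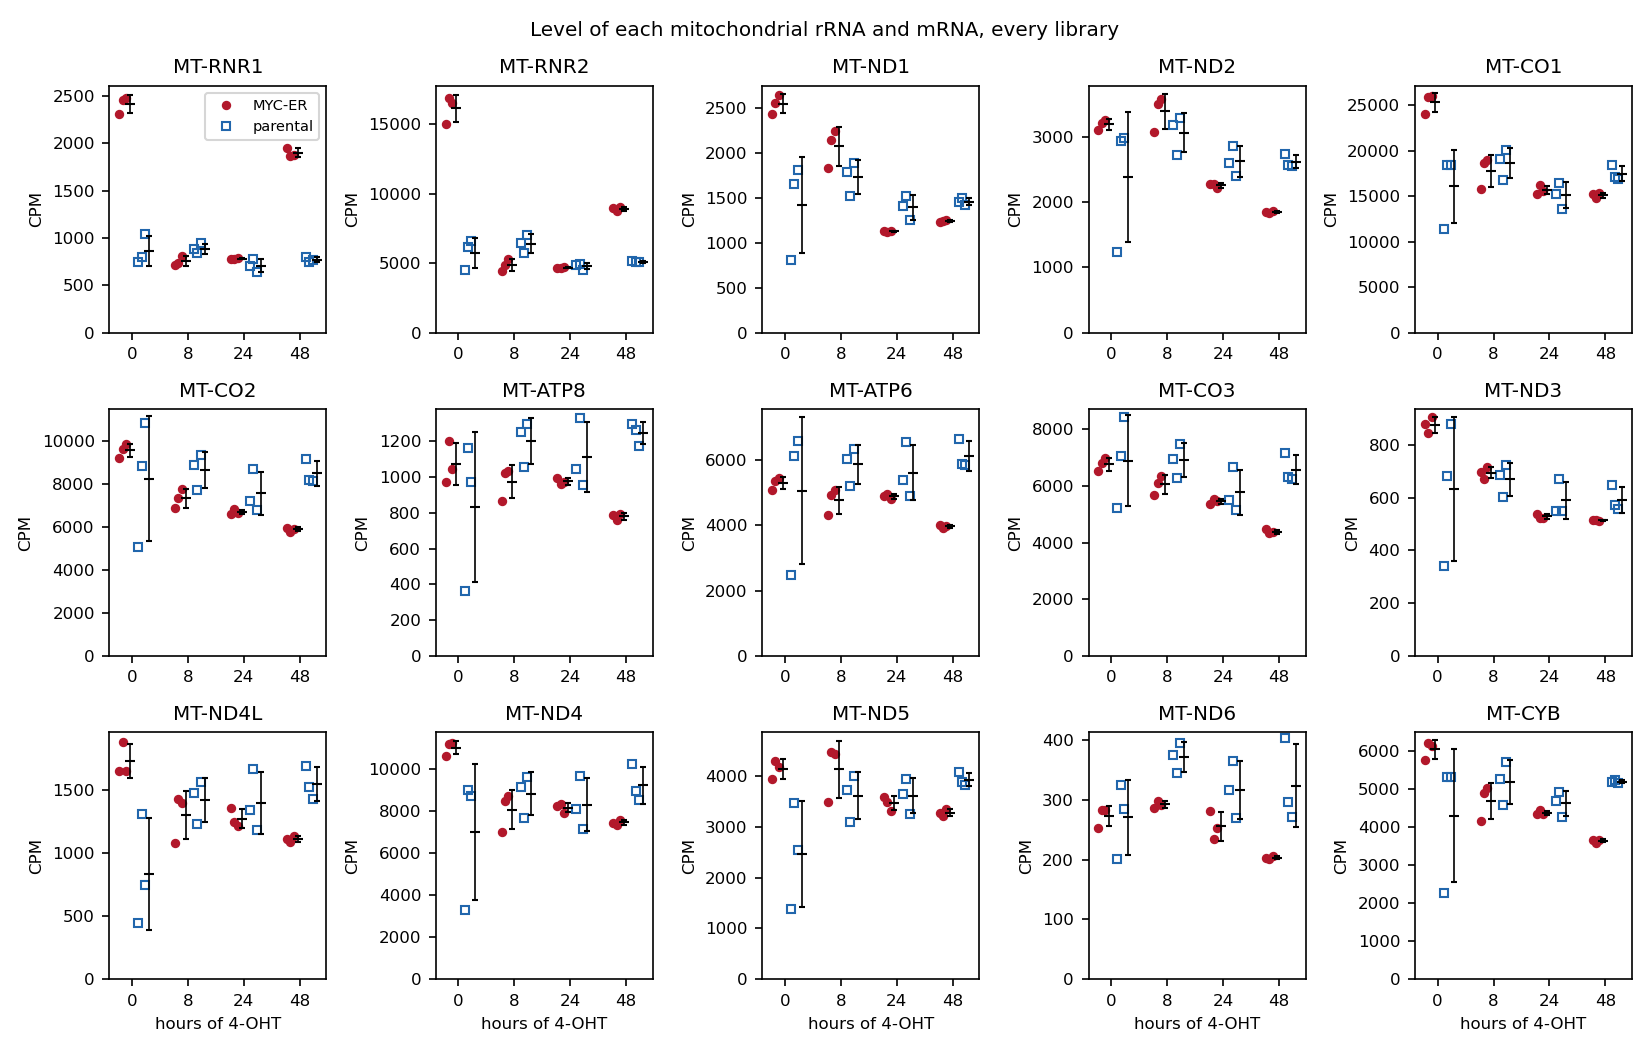
Level in CPM (TMM-scaled counts at a common library total, axes from 0) of the 2 rRNAs and 13 mRNAs against hours of 4-OHT, with 1 point per library for MYC-ER (filled circles) and parental cells (open squares) and a black bar for the mean ± SD of 3 libraries. MT-RNR1 and MT-RNR2 drop between 0 and 8 h in MYC-ER cells and are higher again at 48 h, whereas MT-ND1 is lowest at 24 and 48 h and most other mRNAs are lowest at 48 h.

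At 8 and 24 h the median change of the mRNAs was smaller than the change of either rRNA, and more mRNAs were called at the later times. In MYC-ER cells at 8 h against 0 h, 2 of 13 mRNAs fell, MT-CO1 and MT-CO2, and 11 did not pass. Over all 22158 genes tested in that comparison, 32.2% were called higher and 35.4% lower. The median log2 change of the 13 mRNAs was -0.30, beside -0.10 over all genes. At 24 h against 0 h, 7 of 13 fell (MT-ND1, MT-ND2, MT-ND3, MT-CO1, MT-CO2, MT-CO3 and MT-CYB) with a median of -0.44, beside -0.02 over all genes, of which 30.4% were called higher and 31.2% lower. By 48 h against 0 h, 10 of 13 fell, with a median of -0.64 beside 0.03 over all genes, of which 23.4% were called higher and 20.7% lower. MT-ATP8, MT-ATP6 and MT-ND5 did not pass at 48 h. All 13 log2 changes were below 0 after 48 h under every scaling tried, whereas at 24 h 12 of 13 were below 0 with library size alone, and at 8 h 7 of 13 with trends on GC content and length removed. Without parental 0 h replicate 1, which enters the estimate of the spread, 7, 9 and 13 mRNAs fell at 8, 24 and 48 h. Over the 24 fits that left out 1 library, 1 to 7 mRNAs were called at 8 h, 4 to 9 after 24 h and 7 to 13 after 48 h, with the highest count each time without that library. The call of MT-CO2 after 8 h (adjusted p = 0.0416) was lost without any 1 of the 6 libraries compared and in some other such fits. At 24 h those of MT-ND2, MT-CO3 and MT-CYB were lost without MYC-ER 0 h replicate 2 or 3 or any 24 h library, and 4 calls remained. Those of MT-CO3 and MT-CYB were also lost without parental 8 h replicate 1.

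Between consecutive times the calls were fewer. From 8 to 24 h MT-ND1 (log2 change -0.88, adjusted p = 0.000187) and MT-ND2 (log2 change -0.59, adjusted p = 0.0117) fell, 2 of 13 mRNAs, beside 28.4% of all genes called higher and 27.1% lower. From 24 to 48 h 1 of 13 mRNAs fell, MT-CO3 (log2 change -0.32, adjusted p = 0.0316), while both rRNAs rose, beside 28.2% of all genes called higher and 25.5% lower. With parental 0 h replicate 1 left out, 6 mRNAs fell between 24 and 48 h, and without MYC-ER 24 h replicate 1 or any 48 h library 0 did.

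MT-CO1, of complex IV, had the highest level in CPM of the 13 mRNAs. MT-CO1, whose protein holds the site where oxygen is reduced, stood at 24065, 25853 and 25956 CPM in MYC-ER cells at 0 h, 15796, 18632 and 18927 after 8 h, 15269, 16175 and 15574 after 24 h, and 15186, 14803 and 15308 after 48 h. The 0 h libraries lay above all 9 treated ones, and the fall was present at 8 h (log2 change -0.51, SE 0.127, adjusted p = 0.00136), at 24 h (-0.69) and at 48 h (-0.74). MT-CO2, which takes electrons from cytochrome c, had means of 9540 ± 322, 7313 ± 442, 6690 ± 108 and 5874 ± 88.3 CPM at 0, 8, 24 and 48 h, with log2 changes of -0.38, -0.51 and -0.70. MT-CO3, the remaining mitochondrial subunit of the complex, had means of 6758 ± 233, 6052 ± 345, 5459 ± 95 and 4385 ± 73.6 CPM, and fell by 0.31 after 24 h and by 0.62 after 48 h on the log2 scale. In parental cells MT-CO1 ranged from 11406 to 20021 CPM, MT-CO2 from 5070 to 10815 and MT-CO3 from 5152 to 8416 over the 12 libraries. The lowest parental values of MT-CO1 and MT-CO2 were those of 0 h replicate 1.

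Among the complex I genes MT-ND1 fell most at 24 and 48 h. MT-ND1 stood at 2440, 2560 and 2649 CPM in MYC-ER cells at 0 h, 1830, 2145 and 2247 after 8 h, 1129, 1123 and 1133 after 24 h, and 1237, 1239 and 1255 after 48 h. The step between 8 and 24 h separated all libraries of the 2 groups, and the level stayed low at 48 h, unlike that of the rRNAs just upstream. It fell 2.26-fold at 24 h (log2 change -1.18, SE 0.175, adjusted p = 4.63e-06) and was 2.05-fold lower at 48 h (log2 change -1.04, adjusted p = 4.54e-05). Parental MT-ND1 means were 1422 ± 537, 1738 ± 190, 1394 ± 135 and 1460 ± 40.6 CPM at 0, 8, 24 and 48 h.

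MT-ND2, the next mRNA along the genome, kept its level for longer. Its MYC-ER libraries held 3100, 3206 and 3254 CPM at 0 h, 3077, 3496 and 3579 after 8 h, 2272, 2273 and 2210 after 24 h, and 1842, 1834 and 1865 after 48 h. It fell by 0.50 after 24 h and by 0.79 after 48 h on the log2 scale, and at 8 h it did not pass (log2 change 0.09). MT-ND3, a small membrane subunit, had means of 876 ± 30.3, 695 ± 22.3, 529 ± 8.48 and 514 ± 1.60 CPM, and fell by 0.73 after 24 h and by 0.77 after 48 h on the log2 scale. In parental cells MT-ND2 ranged from 1234 to 3285 CPM and MT-ND3 from 339 to 877, with the lowest value of each in 0 h replicate 1.

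MT-ND4L and MT-ND4, membrane subunits read from 1 shared mRNA, passed the test only at 48 h among the comparisons with 0 h in MYC-ER cells. MT-ND4L had means of 1731 ± 132, 1303 ± 190, 1274 ± 76.4 and 1112 ± 26.7 CPM, with a log2 change of -0.64 after 48 h (adjusted p = 0.0277). For MT-ND4 the means were 11016 ± 323, 8059 ± 924, 8154 ± 219 and 7461 ± 113 CPM, with a log2 change of -0.56 after 48 h (adjusted p = 0.0455). In every treated MYC-ER library both genes lay below all 0 h libraries. The call of MT-ND4 was lost in most fits without 1 library, any of the MYC-ER 0 or 48 h libraries among them, and that of MT-ND4L without 0 h replicate 2 or any 48 h library. MT-ND5, the largest complex I subunit coded in the mitochondrial genome, passed at none of the 3 times. Its means were 4139 ± 188, 4131 ± 562, 3467 ± 145 and 3280 ± 75.5 CPM, with log2 changes of -0.00, -0.26 and -0.34 (adjusted p 0.997, 0.259 and 0.168). When parental 0 h replicate 1 was left out, the adjusted p of MT-ND5 after 48 h was 0.018. MT-ND6 is the single mRNA coded on the other strand, and a strand setting for the counting is not given in the sources used here. How well poly(A) selection captured MT-ND6 was not tested either, so its low level is uncertain. Its means were 273 ± 16.7, 292 ± 6.13, 256 ± 24.4 and 203 ± 2.29 CPM, and it fell by 0.42 after 48 h on the log2 scale (adjusted p = 0.0202), a call that was lost without MYC-ER 0 h replicate 2 or 3 or 48 h replicate 1 or 2.

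MT-CYB, the mitochondrial subunit of complex III, had means of 6037 ± 242, 4687 ± 470, 4366 ± 59.1 and 3633 ± 39.5 CPM in MYC-ER cells. It fell by 0.47 after 24 h and by 0.73 after 48 h on the log2 scale, and at 8 h it did not pass (log2 change -0.36, adjusted p = 0.0892). The ATP synthase genes passed at none of the 3 times. MT-ATP8 had means of 1074 ± 118, 976 ± 92.3, 976 ± 17.3 and 781 ± 18.9 CPM and MT-ATP6 5309 ± 192, 4773 ± 409, 4890 ± 78.7 and 3973 ± 50.9 CPM. At 48 h their log2 changes were -0.46 (adjusted p = 0.127) and -0.42 (adjusted p = 0.115), and the 48 h libraries of both genes lay below the 0 h libraries. Without parental 0 h replicate 1, MT-ATP6 passed at 48 h (adjusted p = 0.000905).

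In parental cells few of these genes passed. At 8 h against 0 h, 3 of 13 mRNAs were higher (MT-ND4L, MT-ND5 and MT-ND6), with a median log2 change of 0.29, beside 15.0% of all genes called higher and 16.0% lower. At 24 h MT-ND4L and MT-ND5 were higher, 2 of 13, beside 21.2% of all genes called higher and 21.7% lower. The same 2 mRNAs were higher at 48 h, beside 20.4% called higher and 20.1% lower over all genes. MT-ND4L stood at 443, 1313 and 749 CPM in the parental 0 h libraries and at 1430 to 1693 CPM at 48 h (log2 change 0.89, adjusted p = 0.0035). MT-ND5 stood at 1375, 3470 and 2541 CPM at 0 h and at 3832 to 4074 CPM at 48 h (log2 change 0.67, adjusted p = 0.00736). The scatter of the 0 h group is seen in both, and at 8 and 24 h the ranges overlapped with 0 h.

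These parental calls rest in part on 0 h replicate 1, whose 13 mRNAs took 3.34% of the counts against 6.57 and 6.31% in its group. Without it 0 of 13 parental mRNAs passed at 8 h, 5 were lower at 24 h (MT-ND1, MT-ND3, MT-CO1, MT-CO2 and MT-CO3), and at 48 h 2 were higher and 2 lower. All of those lower at 24 h but MT-CO1 took a larger share of the mRNA counts in 0 h replicate 3, which this fit keeps, than in replicate 2. In edgeR's fit the count at 8 h was also 0 without parental 8 h replicate 3, and it was 5 without parental 0 h replicate 2, as it also was at 48 h. Without parental 0 h replicate 1 the median log2 changes of the parental mRNAs were 0.01, -0.18 and -0.05 at 8, 24 and 48 h. So the upward medians of the full fit did not hold without that library. At 24 h the calls without it were all lower, 5 of 13, beside 21.7% of all genes called lower in the full fit. The shares over all genes in the fit without it are not given here.

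The MYC-ER change was then set against the parental change in a test of the difference itself. At 8 h 5 of 13 mRNAs had a lower change in MYC-ER cells (MT-ND1, MT-ND4L, MT-ND4, MT-CO1 and MT-CYB), beside 27.3% of all genes called higher and 27.8% lower in that test. At 24 h 5 of 13 did (MT-ND1, MT-ND2, MT-ND4L, MT-ND5 and MT-CO1), beside 27.7% higher and 26.8% lower. At 48 h 12 of 13 did, with MT-ATP6 not passing (difference -0.69, adjusted p = 0.0625), beside 23.6% higher and 21.4% lower. Of the mRNAs at 48 h, MT-ND4L differed by -1.53 (adjusted p = 0.00057), MT-ND1 by -1.07 (adjusted p = 0.00115) and MT-CO1 by -0.87 (adjusted p = 0.000481). Over the fits without 1 library these counts ran from 2 to 8, 4 to 10 and 11 to 13, and at 8 and 24 h the highest came without parental 0 h replicate 2. The calls of MT-ND1 and MT-CYB at 8 h, of MT-ND2 at 24 h and of MT-ND3 at 48 h were lost in most of these fits. With parental 0 h replicate 1 left out, the counts were 5, 6 and 13, and MT-ND4L differed by -1.23 and MT-ND1 by -0.79 after 48 h.

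Before any 4-OHT, both rRNAs and part of the mRNAs already stood higher in MYC-ER cells than in parental cells. At 0 h 7 of 13 mRNAs and both rRNAs were higher in MYC-ER cells, beside 31.6% of all genes called higher and 32.7% lower. MT-RNR1 and MT-RNR2 were each 2.81-fold higher, with log2 differences of 1.49 and 1.49 (adjusted p 5.24e-12 and 3.84e-11). The mRNAs ranked below them, led by MT-ND4L (log2 difference 1.05, adjusted p = 0.000409), MT-ND1 (0.84, adjusted p = 0.000226) and MT-ND5 (0.75, adjusted p = 0.00177), followed by MT-CO1, MT-ND4, MT-CYB and MT-ND3. The calls of MT-CYB and MT-ND3 were lost without parental 0 h replicate 1, without MYC-ER 0 h replicate 2 or 3 and, for MT-ND3, without MYC-ER 0 h replicate 1. MT-CO2, MT-CO3, MT-ATP6, MT-ATP8, MT-ND2 and MT-ND6 did not pass, and MT-CO3 and MT-ND6 had differences of -0.03 and 0.01. When parental 0 h replicate 1 was left out, the rRNA differences were 1.40 and 1.34, 5 mRNAs were higher (MT-ND1, MT-ND4L, MT-ND4, MT-ND5 and MT-CO1) and MT-ATP6 was lower. The median log2 difference of the 13 mRNAs was 0.47 with that library and 0.17 without it. A count of 5 of 13 is not far from the 31.6% of all genes called higher in the full fit. The summed level of the 8 epithelial markers also differed between the lines at 0 h, with 13770 to 14240 CPM in MYC-ER and 21804 to 28083 CPM in parental cells, as did that of the fibroblast markers, with 369 to 377 against 117 to 133 CPM. Their part in the difference was not tested.

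In the main fit fewer mRNAs passed between the lines after 8 and 24 h of 4-OHT than before it, and at 48 h mRNAs and rRNAs differed in opposite directions. With only the groups compared in each fit, 3 mRNAs passed at 0 h, 6 at 8 h and 2 at 24 h, so the order of 0 and 8 h depends on the fit. At 8 h both rRNAs were lower in MYC-ER cells, MT-RNR1 by a log2 difference of -0.23 (adjusted p = 0.0411) and MT-RNR2 by -0.39 (adjusted p = 0.00302), but with trends on GC content and length removed MT-RNR1 was at 0.04. The MT-RNR1 call was also lost without MYC-ER 8 h replicate 1 or 2 or parental 8 h replicate 1 or 3. In edgeR's test 0 of 13 mRNAs passed at 8 h, with 1 at an unadjusted p under 0.05 and 1 in DESeq2, beside 23.1% of all genes called higher and 25.5% lower. At 24 h 0 of 13 mRNAs passed in edgeR's test, with 1 at an unadjusted p under 0.05 and 0 in DESeq2, beside 23.5% called higher and 25.8% lower. The rRNAs did not pass there either (log2 differences 0.14 and -0.04). At 48 h 7 of 13 mRNAs were lower in MYC-ER cells (MT-ND2, MT-ND6, MT-CO2, MT-CO3, MT-ATP8, MT-ATP6 and MT-CYB), beside 27.3% of all genes called higher and 29.4% lower. MT-ATP8 (-0.67, adjusted p = 0.02) and MT-ND6 (-0.67, adjusted p = 0.000419) had the lowest log2 differences, and MT-CO3 followed at -0.58. Both rRNAs went the other way at 48 h, MT-RNR1 by a log2 difference of 1.30 (adjusted p = 9.46e-11) and MT-RNR2 by 0.81 (adjusted p = 7.09e-07). Without parental 0 h replicate 1, 1 mRNA was higher and 4 were lower in MYC-ER cells at 8 h, 3 were lower at 24 h and 11 after 48 h. Without MYC-ER 48 h replicate 2 the count at 48 h was 4, and the calls of MT-ND2 and MT-CYB there were lost without any 1 of the MYC-ER 48 h libraries.

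**Figure D3:**
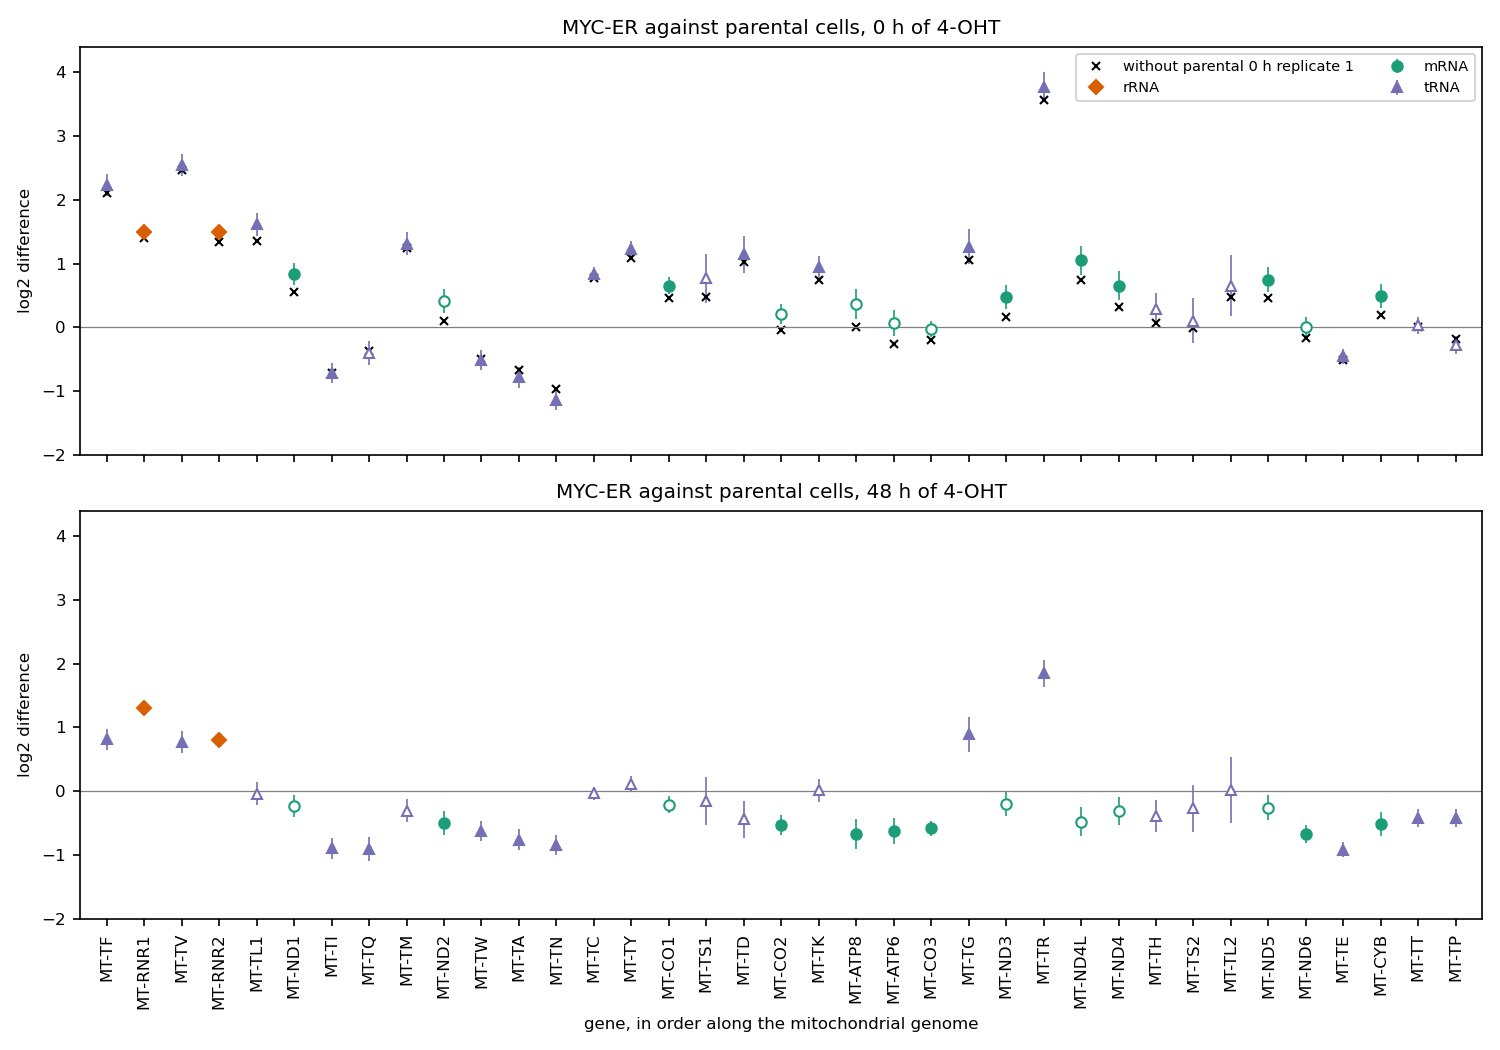
Log2 difference between MYC-ER and parental cells (± SE) for the 37 genes in genome order at 0 and 48 h, with diamonds for rRNAs, circles for mRNAs and triangles for tRNAs, filled where the adjusted p was under 0.05. Crosses at 0 h give the fit without parental 0 h replicate 1. Genes from MT-TF to MT-ND1 and MT-TR lie high at 0 h, and at 48 h the rRNAs and MT-TR lie high while all 13 mRNAs lie below 0.

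The tRNA rows next to the rRNAs also fell at 8 h. MT-TF (phenylalanine) stood at 5.49, 7.08 and 6.46 CPM in MYC-ER cells at 0 h, 1.33, 1.23 and 1.47 after 8 h, 1.45, 1.5 and 1.72 after 24 h, and 2.83, 2.77 and 2.68 after 48 h. MT-TV (valine), between the rRNAs, stood at 10.9, 12.8 and 13.7 CPM at 0 h, 3.45, 3.77 and 3.77 after 8 h, 1.47, 1.64 and 1.54 after 24 h, and 4.75, 4.93 and 5.73 after 48 h. MT-TL1 (leucine), between MT-RNR2 and MT-ND1, stood at 41.1, 47.7 and 42.7 CPM at 0 h, 21.4, 27.3 and 27.3 after 8 h, 10.3, 11 and 10.9 after 24 h, and 18.8, 18.3 and 19.3 after 48 h. MT-TF was at its low level by 8 h, like the rRNAs, whereas MT-TV and MT-TL1 were lower at 24 h than at 8 h (log2 changes -1.24 and -1.24). At 8 h against 0 h MT-TF fell by a log2 change of -2.24 (adjusted p = 1.25e-10) and MT-TV by -1.76 (adjusted p = 5.79e-09). At 24 h MT-TV was down by -3.00 (adjusted p = 2.4e-12) and MT-TL1 by -2.03 (adjusted p = 2.58e-09).

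At 8 and 24 h the largest change of the 37 genes was that of MT-TR (arginine), far from the rRNAs. It stood at 2.70, 3.65 and 2.82 CPM in MYC-ER cells at 0 h, 0.485, 0.681 and 0.547 after 8 h, 0.250, 0.240 and 0.224 after 24 h, and 1.10, 1.12 and 1.14 after 48 h. Parental libraries held 0.153 to 0.358 CPM throughout, and the lowest MT-TR count in any library was 25. The log2 change from 0 h was -2.42 after 8 h (adjusted p = 1.09e-09), -3.68 after 24 h (12.8-fold, adjusted p = 3.65e-12) and -1.45 after 48 h (adjusted p = 3.92e-06). From 24 to 48 h MT-TR rose 4.69-fold. Its neighbours on either side moved otherwise: MT-ND3 and MT-ND4L had log2 changes of -0.33 and -0.41 after 8 h, and neither passed.

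Over the 22 tRNA rows 10 fell and 2 rose at 8 h against 0 h, 15 fell at 24 h and 18 fell at 48 h. Of all genes, 35.4% fell and 32.2% rose at 8 h, 31.2% fell at 24 h and 20.7% fell at 48 h. At 48 h the lowest log2 change of the 37 genes was that of MT-TM (methionine), at -1.58 (adjusted p = 2.57e-07). MT-TM stood at 5.32, 5.70 and 5.83 CPM at 0 h and at 1.93, 1.91 and 1.81 CPM after 48 h. The rows that rose at 8 h were MT-TI (isoleucine, log2 change 0.42, adjusted p = 0.0262) and MT-TE (glutamate, 0.31, adjusted p = 0.0239), and each call was lost in 3 of 24 fits that left out 1 library. Between 8 and 24 h 13 rows fell, beside 27.1% of all genes. Between 24 and 48 h 8 rose and 4 fell, beside 28.2% of all genes higher and 25.5% lower. The abundant rows MT-TS1, MT-TY, MT-TL1 and MT-TC all fell at 8, 24 and 48 h, although the MT-TS1 calls were lost without 8 h replicate 1 after 8 h and without any 1 of the 6 libraries compared at 24 and 48 h. MT-TY (tyrosine), coded on the minus strand, held 76.2, 85.4 and 79.7 CPM at 0 h, 45.2, 54.3 and 54.9 after 8 h, 35.9, 34.4 and 34.2 after 24 h, and 46.4, 43.5 and 47.8 after 48 h. In parental cells 7 tRNA rows were higher at 8 h, 2 were lower at 24 h, and 1 was higher and 2 lower at 48 h. Beside these counts, 15.0% of all genes were higher at 8 h, 21.7% lower at 24 h, and 20.4% higher and 20.1% lower at 48 h. Without parental 0 h replicate 1, 1 tRNA row was higher at 8 h, 1 was lower at 24 h, and 0 were higher and 1 lower at 48 h, so most of the parental calls at 8 h rest on that library.

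Not all tRNA rows were higher in MYC-ER cells at 0 h: 10 were higher and 5 were lower than in parental cells, beside 31.6% of all genes higher and 32.7% lower. MT-TR was higher by a log2 difference of 3.78 (13.7-fold, adjusted p = 2.76e-12), MT-TV by 2.55 and MT-TF by 2.23. MT-TN (asparagine) was lower by -1.14 (adjusted p = 1.31e-06), MT-TA (alanine) by -0.78 and MT-TI by -0.72. MT-TN stood at 1.35, 1.28 and 1.68 CPM in MYC-ER and at 3.85, 2.71 and 2.90 CPM in parental cells. MT-TN and MT-TA lie on the minus strand, and without a known strand setting reads of a gene and of the opposite strand cannot be told apart. With parental 0 h replicate 1 left out, the differences were 3.57 for MT-TR, 2.47 for MT-TV and -0.97 for MT-TN. In MYC-ER against parental cells 1 tRNA row was higher and 9 lower at 8 h, 15 were lower at 24 h, and 4 were higher and 8 lower at 48 h. Of all genes, 23.1% were higher and 25.5% lower at 8 h, 25.8% lower at 24 h, and 27.3% higher and 29.4% lower at 48 h. In the test of the difference between the lines' changes 9 rows were lower at 8 h, 1 was higher and 11 were lower at 24 h, and 10 were lower at 48 h. Beside these, 27.8, 26.8 and 21.4% of all genes were lower at 8, 24 and 48 h. Without parental 0 h replicate 1, 8, 10 and 9 rows were lower in that test and 0 were higher. The lower rows at 48 h between the lines, 8 of 22, were near the share over all genes.

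**Figure D4:**
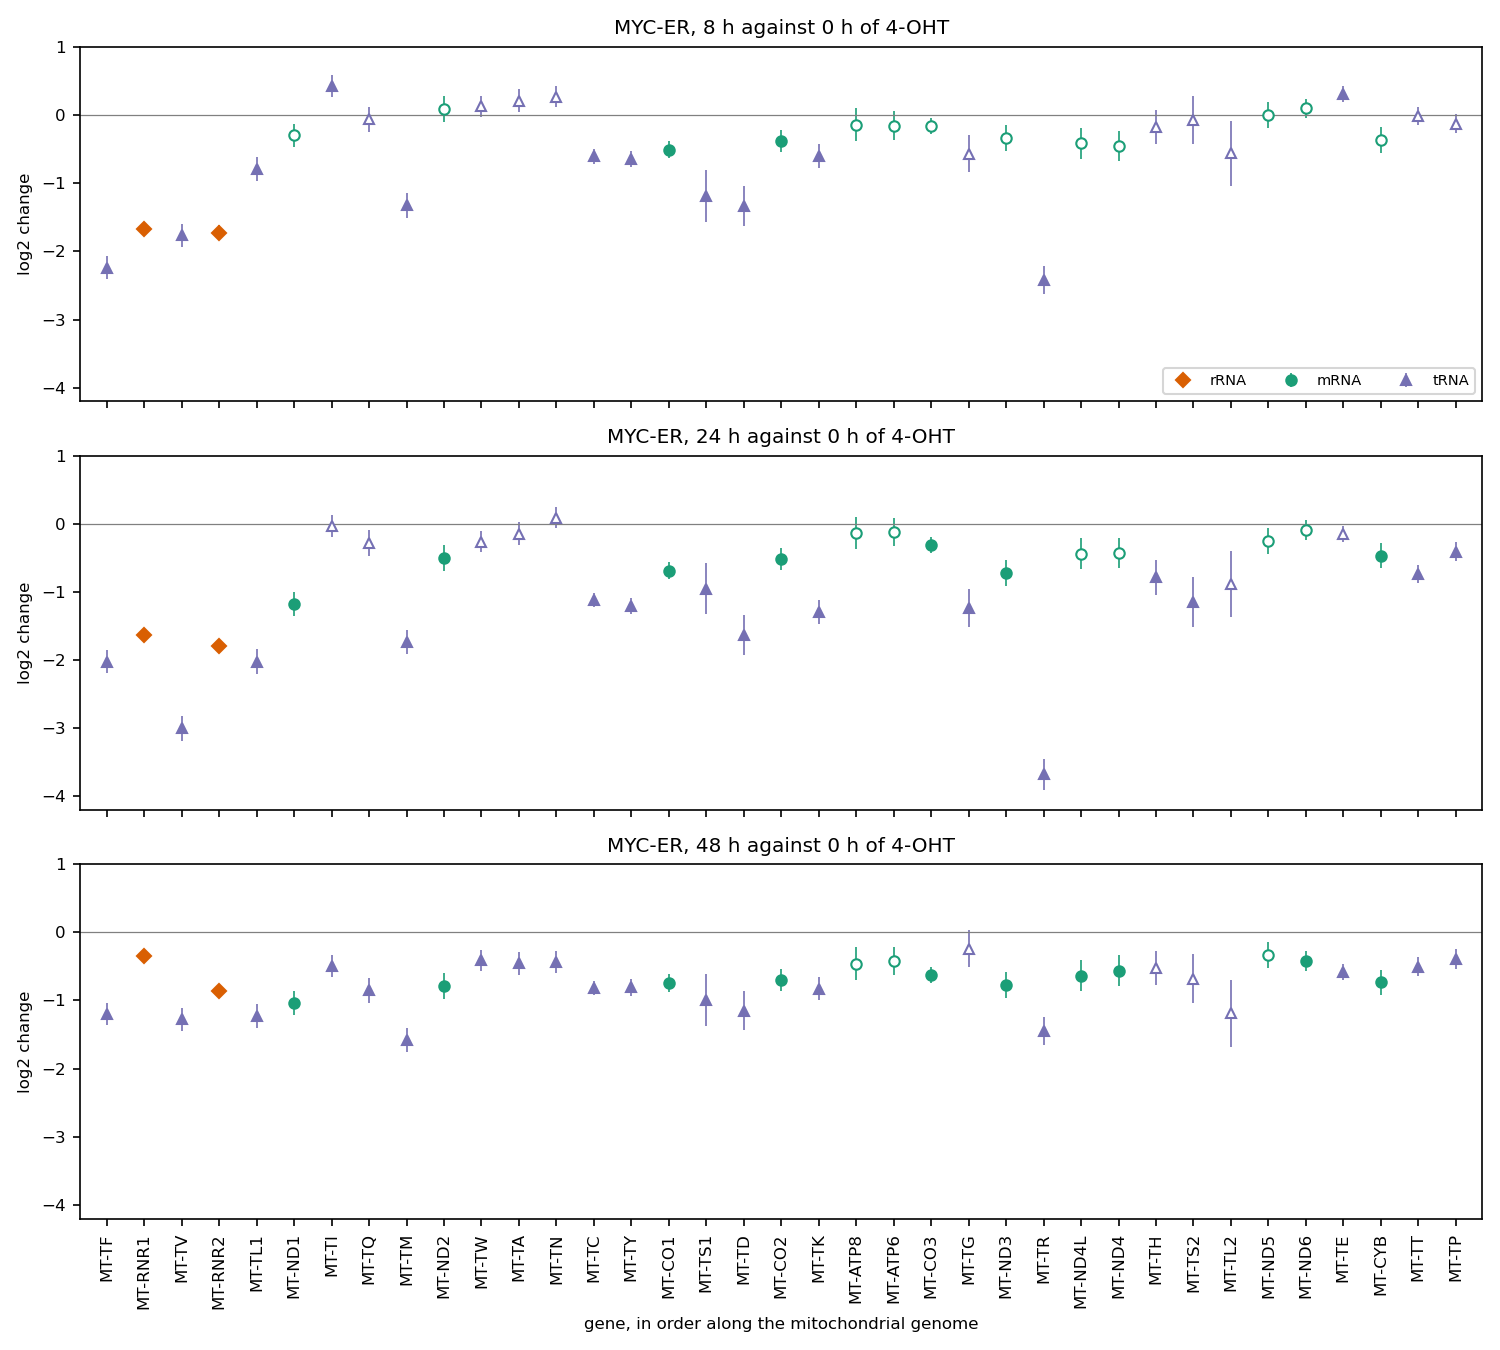
Log2 change (± SE) of the 37 genes in genome order in MYC-ER cells at 8, 24 and 48 h against 0 h, with diamonds for rRNAs, circles for mRNAs and triangles for tRNAs, filled where the adjusted p was under 0.05. MT-TR, MT-TF, MT-TV and both rRNAs lie lowest at 8 h and MT-TR and MT-TV at 24 h, the mRNAs lie between -1.18 and 0.10 over those times, and at 48 h the rRNAs have moved back towards 0 while the mRNAs have not.

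Genes were also compared within the mitochondrial transcriptome, by using the total of the 13 mRNAs as the library size, so that a change common to all of them cancels. Relative to that total, 5 of 37 genes were higher and 9 lower at 8 h against 0 h in MYC-ER cells. By this scale 34.6% of all genes were called higher and 19.0% lower, with a median log2 change of 0.23. A change in the mRNA total moves nuclear genes the opposite way on this scale. The shares of all genes are therefore no neutral background for the 37. MT-RNR1 and MT-RNR2 were lower by log2 changes of -1.34 and -1.38, and among the mRNAs MT-ND2 (0.43), MT-ND5 (0.33) and MT-ND6 (0.45) were higher. At 24 h 2 of 37 were higher (MT-ATP6 at 0.38 and MT-ND6 at 0.41) and 12 lower. All genes had a median of 0.47 in that comparison, with 39.5% higher and 10.2% lower. MT-ND1 was the mRNA that was lower then, by -0.68. At 48 h 1 gene was higher (MT-ND5 at 0.32) and 6 lower, MT-ND1 among them at -0.38, and neither rRNA passed. By then the median of all genes had moved to 0.68, with 52.1% higher and 1.67% lower. At 0 h in MYC-ER against parental cells 11 of 37 were higher and 11 lower. Between the lines 9.72% of all genes were higher and 45.2% lower on this scale, with a median log2 difference of -0.59. MT-ND1 (0.40) and MT-ND4L (0.61) were higher and MT-ATP6 (-0.35), MT-CO3 (-0.55) and MT-ND6 (-0.50) lower, while the rRNAs were higher by 0.94 and 0.96. On this scale the rRNAs thus stood apart from the mRNA total at 8 and 24 h, and MT-ND1 at 24 and 48 h. The calls of MT-ND5 at 8 and 48 h and of MT-ND6 after 24 h were lost without any 1 of the MYC-ER 0 h libraries, and MT-ND6 after 8 h without 0 h replicate 1 or 8 h replicate 1.

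The makeup of the mRNA pool can be put as shares of the 13 mRNAs. MT-CO1 took 32.5% of the mRNA counts in MYC-ER cells at 0 h, 28.9% after 8 h, 28.4% after 24 h and 30.6% after 48 h, and 26.1 to 29.2% on average in the parental groups. MT-ND1 took 3.28, 3.37, 2.05 and 2.52% at 0, 8, 24 and 48 h, and 2.26 to 2.63% in the parental groups. MT-ND2 took 4.10, 5.50, 4.09 and 3.74%, so it made up more of the pool at 8 h than at other times. These are group means of 3 libraries and were not tested.

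Levels of different genes were compared per length, as CPM per kilobase. In MYC-ER cells at 0 h the order was MT-CO1 (16402 ± 689 CPM per kilobase), MT-CO2 (13948 ± 471), MT-CO3 (8620 ± 298), MT-ND4 (7994 ± 234), MT-ATP6 (7796 ± 281), MT-ND4L (5830 ± 446), MT-CYB (5291 ± 212), MT-ATP8 (5189 ± 569), MT-ND2 (3058 ± 75.7), MT-ND1 (2667 ± 110), MT-ND3 (2531 ± 87.6), MT-ND5 (2284 ± 104) and MT-ND6 (519 ± 31.9). Neighbours whose libraries overlapped were MT-ND4 and MT-ATP6, MT-CYB and MT-ATP8, and MT-ND1 and MT-ND3. In that group complex IV genes thus led and complex I genes apart from MT-ND4 and MT-ND4L came last, and MT-ND6 was last in all 8 groups. At 48 h in MYC-ER cells MT-CO1 (9792 CPM per kilobase) and MT-CO2 (8588) still led, MT-ATP6 (5834) stood above MT-CO3 (5593), and MT-ND1 (1301) had dropped to the place above MT-ND6 (387). In the 4 parental groups MT-CO2 came first and MT-CO1 next, with overlapping ranges.

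**Figure D5:**
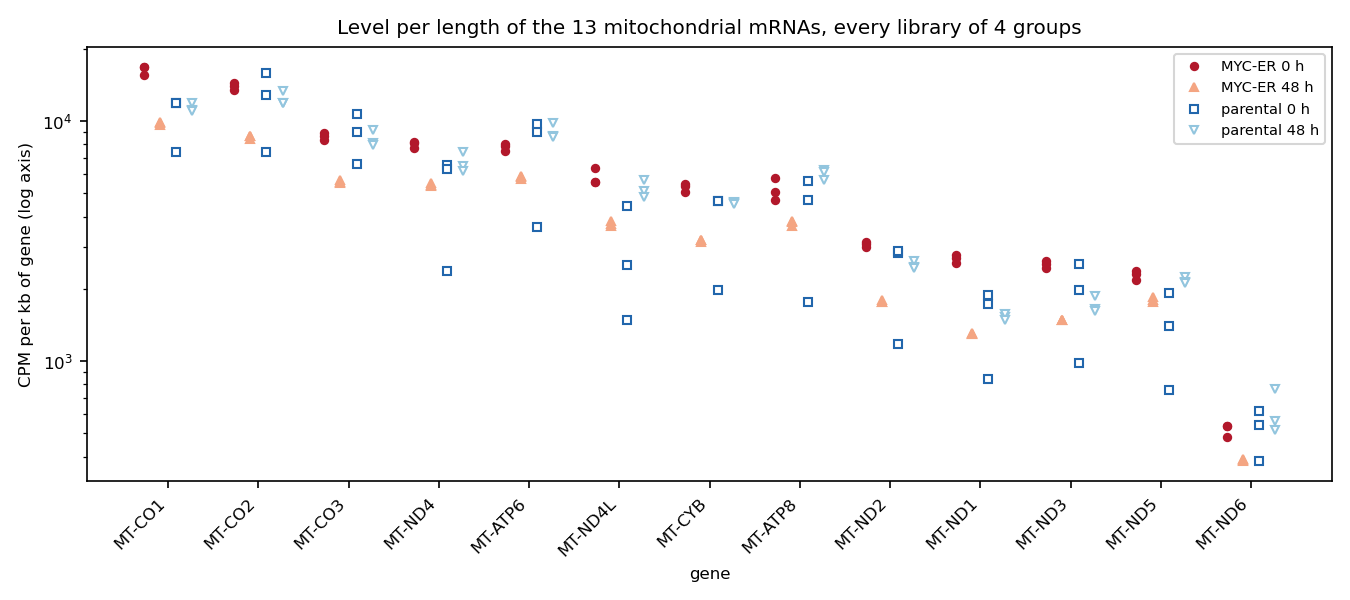
Level per length of the 13 mRNAs (CPM per kilobase, log axis) in every library of the MYC-ER 0 and 48 h and parental 0 and 48 h groups. MT-CO1 and MT-CO2 lie at the top and MT-ND6 at the bottom of all 4 groups, and MT-ND1 lies lower in the MYC-ER 48 h libraries than in those of 0 h.

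Nuclear copies of mitochondrial sequence could take or give reads. The table holds 404 such pseudogenes, and 98.5% of their counts fell in 3 of them. MTCO1P12 had 5.95% as many counts as MT-CO1, MTATP6P1 14.5% as many as MT-ATP6 and MTND2P28 14.2% as many as MT-ND2. MTCO1P12 moved with its parent, with log2 changes of -0.45, -0.71 and -0.72 at 8, 24 and 48 h in MYC-ER cells, and MTND2P28 had 0.18, -0.45 and -0.75. MTATP6P1 had -0.05, 0.01 and -0.36 and, like MT-ATP6, passed at none of these times. The copies and their mitochondrial parents are near-identical, so the split of reads between them is uncertain.

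Nuclear genes of mitochondrial DNA transcription and replication, RNA processing and stability, translation and biogenesis were described from 4 lists. In MYC-ER cells at 8 h, 14 of 20 transcription and replication genes rose and 6 fell (median log2 change 0.58), 23 of 30 RNA processing and stability genes rose and 3 fell (median 0.66), and 9 of 15 translation factors rose and 4 fell (median 0.27). Of 10 nuclear regulators 2 rose and 6 fell (median -0.23). Of all genes 32.2% rose and 35.4% fell, with a median of -0.10. So at 8 h, when the rRNAs were at their low level, most genes of the transcription and replication list and of the processing and stability list were higher. At 24 h against 0 h the transcription and replication list had 15 higher and 3 lower and the processing list 21 higher and 4 lower, beside 30.4% of all genes higher and 31.2% lower. Between 24 and 48 h this turned, with 3 higher and 16 lower of 20 in the transcription list and 24 lower of 30 in the processing list (medians -0.38 and -0.55), beside 28.2% of all genes higher and 25.5% lower.

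Single members show the course. POLRMT, the mitochondrial RNA polymerase, averaged 57.9 CPM at 0 h, 73.3 after 8 h, 50.2 after 24 h and 39.4 after 48 h in MYC-ER cells, with log2 changes of 0.34, -0.21 (adjusted p = 0.0586) and -0.56. TFAM, which packs the DNA and starts transcription, averaged 41.2, 73.6, 81.3 and 43.5 CPM (log2 changes 0.84, 0.98 and 0.08). TFB2M, the initiation factor that opens the promoter, averaged 38.1, 93.2, 52.3 and 30.8 CPM (log2 changes 1.29, 0.46 and -0.30). All 3 were higher at 8 h, when no mitochondrial mRNA or rRNA was called higher. SLIRP, which with LRPPRC protects mitochondrial mRNAs from decay, averaged 19.6, 45, 51.8 and 26.8 CPM (log2 changes 1.20, 1.40 and 0.45), whereas LRPPRC averaged 287, 272, 321 and 281 CPM.

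Other listed genes with large changes at 8 h included TFB1M, which methylates the small-subunit rRNA (log2 change 1.73), SSBP1, which coats single-stranded mitochondrial DNA (1.5), TRMT10C, a subunit of the enzyme that cuts tRNA 5′ ends (1.31), and PNPT1, a mitochondrial RNA exonuclease (1.30). MTERF2 (-1.74) and MTERF4 (-0.92), members of a family of mitochondrial termination factors, fell. At 0 h the lists leaned the other way between the lines, with 3 higher and 14 lower of 20 transcription and replication genes and 6 higher and 18 lower of 30 processing genes in MYC-ER against parental cells (medians -0.37 and -0.43). Of all genes 31.6% were higher and 32.7% lower there. TFB1M (-1.35), SSBP1 (-1.39) and SLIRP (-1.57) were lower in MYC-ER cells at 0 h, and MTERF2 (1.07), MTERF4 (0.69) and LRPPRC (0.46) were higher. The regulators list had 6 higher and 3 lower of 10 at 0 h. Whether these nuclear changes bear on the mitochondrial RNA levels was not tested.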

How the data were processed

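Poly(A)-selected, stranded libraries of 150-base paired reads, 24 in all, were deposited by the authors as 1 table of expected counts per gene: estimated, whole-number counts, not normalised, with 1 column per library and 0 columns left unmapped. The submitters' processing notes list Trimmomatic 0.39, STAR, StringTie 2.1.3b and the build GRCh38, without roles. StringTie can derive counts from coverage, so the values are treated as estimates. The annotation release, the strand setting and the treatment of reads that match several genes are not given in the sources used here. Per the labels, 3 libraries shared a sequencing lane, and since which ones is not stated, lane and group cannot be told apart.

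Identifiers without their version matched a symbol for 60340 of 60668 rows. Coordinates, lengths and sequences came from GENCODE release 29 (GRCh38). In edgeR 4.0.16 (R 4.3.3, limma 3.58.1), counts of the 22158 genes kept by filterByExpr, 22021 with a symbol and all 37 MT- genes among them, were scaled by TMM and fitted with 1 mean per group over 24 libraries (common biological coefficient of variation 0.151). Contrasts were tested with the two-sided quasi-likelihood F test, with Benjamini-Hochberg adjustment over all genes tested and a threshold of 0.05. A further fit used the total of the 13 mRNAs as library size. The fits were tested on simulated data. Alternatives were DESeq2 1.42.0, other scalings and filters (including at least 10 counts in every library), lowess trends on GC content and length removed (span 0.3, values for 98.04% of genes), the replicate number as a block, only the groups compared, and each library left out.

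The members and gene lists were chosen with earlier results of these data known. By rule, all mRNAs and rRNAs and the 5 most abundant tRNA rows were to be described. At most the 3 highest and 3 lowest MT- genes called per contrast could be given with log2 changes, and at most 6 called genes of at least 10 CPM per nuclear list could be named beside POLRMT, TFAM, TEFM, TFB2M, LRPPRC, SLIRP, TWNK and POLG; not all of these are printed. Other log2 changes of mRNAs and rRNAs, and the per-library levels of MT-TF, MT-TV, MT-TR, MT-TM and MT-TN, were chosen after their values were seen.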

Additional observations from a re-analysis of the deposited data

Results flagged for a closer look

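The change after 4-OHT differed between MYC-ER and parental cells in a test of the difference itself, and the members below are rRNAs or among the at most 3 lowest and 3 highest called at each time (MYC-ER log2 change minus parental log2 change, edgeR's quasi-likelihood test with Benjamini-Hochberg adjustment). At 8 h the differences were -2.75 in MT-TR (adjusted p = 8.24e-08), -2.75 in MT-TF (adjusted p = 1.98e-09), -2.41 in MT-TV (adjusted p = 1.73e-08), -1.88 in MT-RNR2 and -1.72 in MT-RNR1. At 24 h they were -3.78 in MT-TR (adjusted p = 1.04e-09), -3.15 in MT-TV (adjusted p = 3.81e-10), -2.29 in MT-TL1, -1.53 in MT-RNR2 and -1.36 in MT-RNR1. At 48 h they were -1.93 in MT-TR (adjusted p = 1.94e-05), -1.78 in MT-TV, -1.66 in MT-TL1 and -0.68 in MT-RNR2 (adjusted p = 0.000572).

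A single member was called with a positive difference at 24 h, MT-TN at 0.58 (adjusted p = 0.0276), and this call was lost in 5 of 24 fits that left out 1 library: MYC-ER 0 h replicate 1 or 2, MYC-ER 24 h replicate 3, parental 0 h replicate 1 (0.42, adjusted p = 0.108) and parental 24 h replicate 3. All comparisons with 0 h use the same 0 h libraries, so the values at 8, 24 and 48 h are not independent.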

How the results depend on the processing

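The numbers of mRNAs called are the least stable results. At 8 h against 0 h in MYC-ER cells the main count was 2, and it was 1 with DESeq2's size factors, with no filter and with the GC trend removed, 6 with library size alone, 8 with upper-quartile scaling and 8 with only the groups compared. At 24 h against 0 h it was 4 with library size alone (main 7). At 24 h against 8 h (main 2) it was 1 with library size alone, 4 with only the groups compared, 5 with the GC trend and 8 with GC and length trends removed. At 48 h against 24 h (main 1) it was 0 with library size alone, upper-quartile scaling and no filter, 2 with size factors, DESeq2 and either trend removed, and 13 with only the groups compared. In parental cells only the groups compared gave 0 at 8, 24 and 48 h (main 3, 2 and 2) and the GC trend 1 at 8 and 24 h. Between the lines, only the groups compared gave 3, 6, 2 and 13 at 0, 8, 24 and 48 h (main 7, 0, 0 and 7); at 8 h library size, upper quartile, at least 10 counts, both trends and DESeq2 gave 1, at 24 h both trends gave 2, and at 48 h library size gave 3 and upper quartile 2. For the difference between the lines' changes, 8 h (main 5) gave 3 with size factors and 2 with no filter, only the groups compared and either trend, and 24 h (main 5) gave 3 with only the groups compared and 10 with both trends. Relative to the mRNA total, only the groups compared called 24, 21 and 12 of 37 genes at 24 h, 48 h and between the lines at 0 h (main 14, 7 and 22). The cause of these moves was not tested.

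Fits without 1 library gave 1 to 7, 4 to 9 and 7 to 13 mRNAs at 8, 24 and 48 h against 0 h, 2 to 3 at 24 h against 8 h and 0 to 6 at 48 h against 24 h. In parental cells they gave 0 to 5, 1 to 5 and 2 to 5, between the lines 5 to 9, 0 to 5, 0 to 3 and 4 to 11 at 0, 8, 24 and 48 h, and for the difference of changes 2 to 8, 4 to 10 and 11 to 13. Relative to the mRNA total they gave 12 to 24, 13 to 23, 4 to 11 and 20 to 26. The mitochondrial share of counts ran from 9.46 to 9.69, 6.08 to 6.56, 6.41 to 6.57 and 6.61 to 6.72% in MYC-ER and from 5.45 to 7.15, 6.96 to 7.57, 5.85 to 6.63 and 6.76 to 7.35% in parental groups. With the 606 most abundant nuclear genes (1% of rows) left out, the shares were 15.7, 10.4, 10.5 and 11% in MYC-ER and 10.4, 12, 10.4 and 11.7% in parental groups, and MYC-ER 0 h stayed the highest.

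Of 251 log2 changes called, library size alone kept direction and call in 211 and DESeq2 in 248. With GC and length trends removed 3 turned sign, MT-TE in parental cells at 8 h (-0.015), MT-RNR1 between the lines at 8 h (0.043) and the MT-TE difference of changes at 48 h (0.12). Library size alone moved the median of all genes by 0.11 and 0.16 at 24 and 48 h against 0 h, by 0.21 at 24 h against 8 h and by 0.12 and 0.14 between the lines at 24 and 48 h, and upper-quartile scaling moved it by -0.14 at 8 h against 0 h. Same-numbered libraries did not deviate together (correlations from -0.03 to 0.05 over 36 pairs, 0 of them over 0.1), so no pairing by number was seen in these values. Pairs of other numbers were not compared, and whether same-numbered libraries shared a culture or lane cannot be told from this. With the replicate number as a block 8 mRNAs were called between the lines at 0 h and 3 in parental cells at 48 h, and the other mRNA counts were equal, and relative to the mRNA total 6 genes were called at 48 h against 0 h (main 7). Depth limits the tRNA rows, whose counts went down to 4.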
